A study of Homo sapiens with 6 samples.

Results

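Homologous recombination, Fanconi and replication checkpoint genes were described in PANC-1 cells depleted of RRM2. The set was a list of 45 named genes, grouped by their known roles, out of 42902 Gene IDs in the deposited count table, and all 45 passed the filter on low counts that left 15866 genes for testing. PANC-1 is an established human line from a pancreatic ductal carcinoma. RRM2 encodes the smaller, iron-containing subunit of ribonucleotide reductase, on which cells depend for the deoxyribonucleotides of DNA synthesis and repair. The shRRM2 group was 3 libraries from PANC-1 cells carrying a short hairpin RNA against RRM2, and the shNC group was 3 libraries from PANC-1 cells carrying a non-targeting hairpin. Both groups were thus hairpin-carrying derivatives of 1 line, the labels do not give the number of hairpins or clones, and no library of untransduced cells was analysed here. Nothing in the labels tells whether replicates were grown as separate cultures, so each p-value is set against a spread among libraries that could be technical.

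When a replication fork stalls or a DNA strand breaks, single-stranded DNA becomes coated with the RPA trimer, which recruits the ATR kinase and, through mediators such as TOPBP1 and claspin, leads to activation of the CHEK1 kinase. Breaks are resected by the MRE11-RAD50-NBN complex, and BRCA1, PALB2 and BRCA2 load a recombinase that copies the sequence from the sister chromatid. Crosslinks between strands are handled by the Fanconi pathway, in which a core complex attaches ubiquitin to the FANCD2-FANCI pair. Pancreatic ductal carcinoma is one of the tumours in which inherited variants of BRCA2, PALB2, BRCA1 and ATM are known predispositions.

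RRM2 was measured first, as a check of the labels. Its level was 40.5, 40.7 and 39.5 CPM (counts per 1e6 counts, scaled for library size and composition) in the shRRM2 libraries, against 204, 192 and 203 CPM in the shNC libraries, so the shRRM2 level was 20.2% of the shNC level (log2 fold change -2.31, adjusted p = 3.72e-29). Total counts were 17442948, 19740706 and 17824619 in the shRRM2 libraries and 17917227, 23300433 and 16606947 in the shNC libraries, and the first principal component, with 65.9% of the variance, separated the groups. Keratins KRT7, KRT8 and KRT18 were abundant, while the ductal markers KRT19 and EPCAM were near 0, with 6, 6 and 6 counts of KRT19 in shRRM2 and 2, 2 and 0 in shNC. Of the other epithelial markers, MUC1 averaged 841 CPM in shRRM2 and 467 CPM in shNC, and CDH1 2.36 and 0.86 CPM. The mesenchymal genes VIM, CDH2 and ZEB1 averaged 603, 58.8 and 48.7 CPM in shRRM2 and 556, 48.5 and 46.9 CPM in shNC. Genes that define leukocytes (PTPRC, CD3E), endothelium (KDR), acinar cells (PRSS1, CPA1) and islet cells (INS, GCG) were at or near 0 counts in all 6 libraries. CDKN2A, a cell cycle inhibitor generally described as deleted in PANC-1, was counted at 276, 289.8 and 268 CPM in shRRM2 and 285, 294 and 272 CPM in shNC, which goes against that description of the line.

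Among the 45 genes, 14 were higher and 14 were lower in shRRM2 than in shNC at an adjusted p under 0.05, and 17 did not pass (edgeR's quasi-likelihood test with Benjamini-Hochberg adjustment over all 15866 genes, the source of every adjusted p given here). Each count was 31.1% of the members, beside 26.0% of all tested genes called higher and 26.1% called lower. The shares lie near the background. Most of the changes were small: the median size of the log2 fold change was 0.20 over the members and 0.26 over all tested genes, and the median signed value was 0.04 over the members and -0.01 over all. At the same adjusted p, a log2 change of at least 0.5 was seen in 1 gene upward, BRIP1, and 1 gene downward, FANCF, beside 12.0% of all tested genes upward and 7.08% downward. The downward count became 2, with RAD51B as the second, without shNC library 2 (RAD51B -0.56), without shNC library 3 (-0.51) or without shRRM2 library 2 (-0.55). Without overlap between the 3 values of each group, 15 members were higher and 16 were lower in shRRM2, where 29.2% and 28.6% of all tested genes were. In bulk RNA, a change in the share of cells that express a gene and a change of RNA per cell cannot be told apart.

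**Figure D1:**
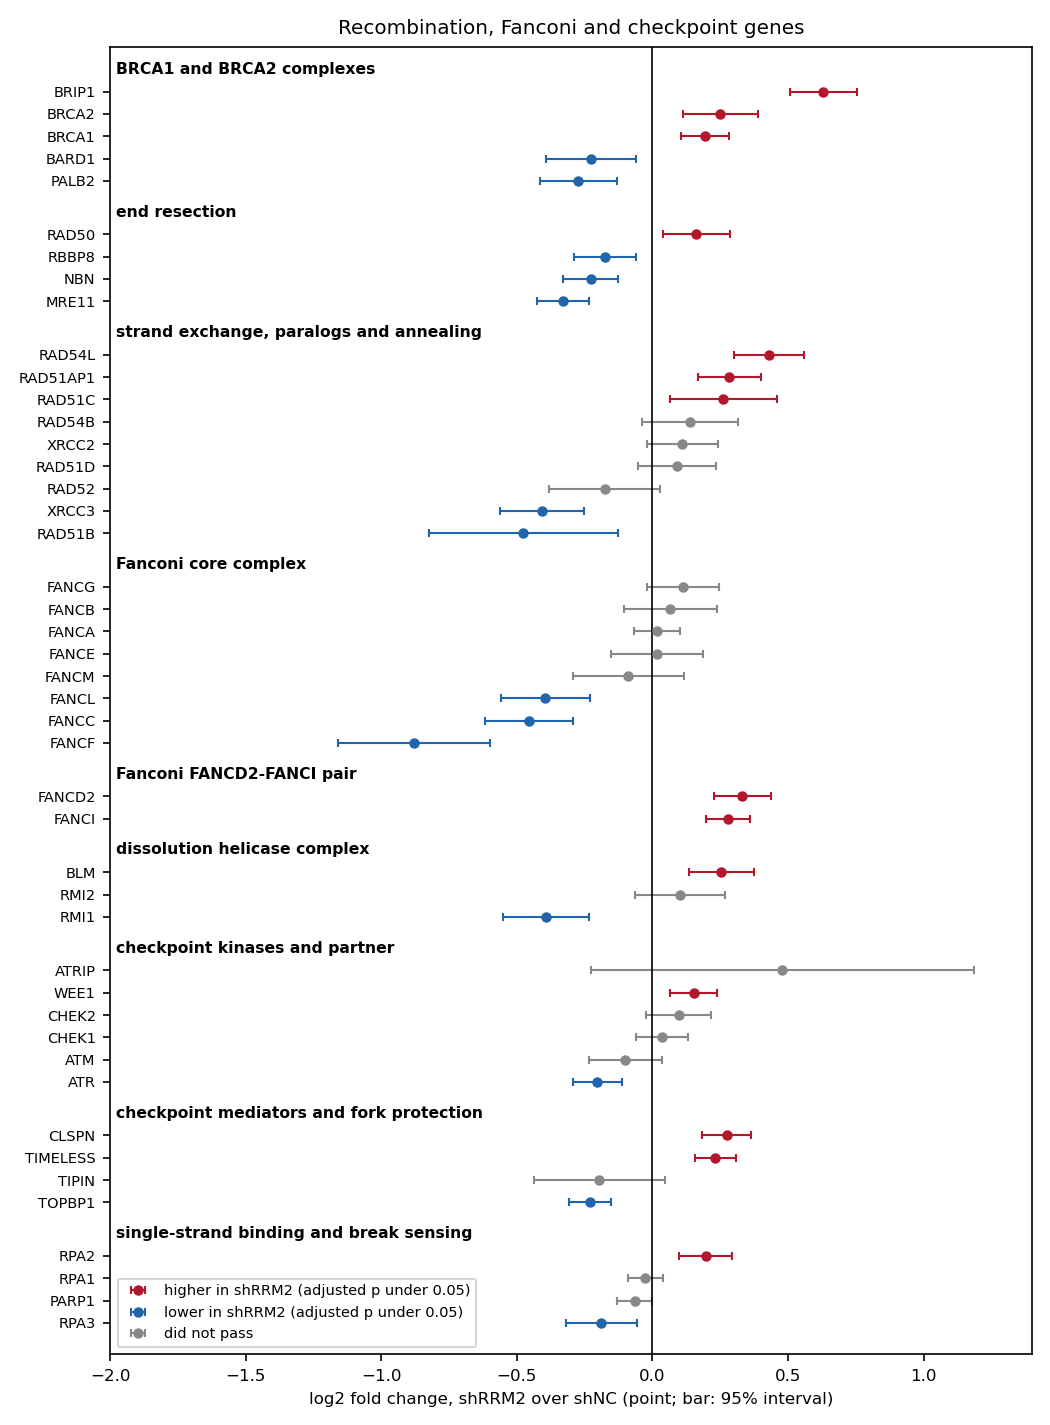
Log2 fold change of each of the 45 genes, shRRM2 over shNC (horizontal axis), grouped by role, with 95% intervals from edgeR. BRIP1 at 0.63 and FANCF at -0.88 lie farthest from 0 among the genes that passed, and the interval of ATRIP is by far the widest.

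Genes of the BRCA1 and BRCA2 complexes moved in both directions. BRIP1 (Gene ID 83990, chr17:61679139-61863528), the helicase also called FANCJ that binds BRCA1, had the largest upward change. BRIP1 had 60.5, 60.3 and 56.4 CPM in the shRRM2 libraries, against 40.7, 37.0 and 36.9 CPM in the shNC libraries. The groups did not overlap, and the mean in shRRM2 was 1.55 times that in shNC (log2 fold change 0.63, SE 0.0604, 95% interval 0.51 to 0.75, adjusted p = 1.08e-10). BRCA2, which loads the recombinase on single-stranded DNA, had 44.8, 43.2 and 39.7 CPM in shRRM2 and 38.1, 34.4 and 35.0 CPM in shNC (log2 fold change 0.25, adjusted p = 0.00201). BRCA1 (chr17:43044295-43170327), the scaffold and ubiquitin ligase of the same pathway, had 108, 105 and 113 CPM in shRRM2 and 96.1, 94.2 and 94.8 CPM in shNC (log2 fold change 0.19, adjusted p = 0.000283). All 3 genes were higher in every shRRM2 library than in every shNC library.

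PALB2 and BARD1, which bind these proteins, were called lower. PALB2, the protein that bridges BRCA1 and BRCA2, had 30.9, 37.2 and 34.6 CPM in shRRM2 and 43.0, 40.6 and 40.9 CPM in shNC, and fell (log2 fold change -0.27, SE 0.0696, adjusted p = 0.00123). BARD1, the obligate ligase partner of BRCA1, had 25.5, 25.0 and 25.1 CPM in shRRM2 and 33.2, 27.0 and 28.4 CPM in shNC, and was called lower (log2 fold change -0.23, SE 0.0810, adjusted p = 0.0192). The groups did not overlap for either gene, but the BARD1 call was lost without shNC library 1, which had the highest value. The log2 fold change was then -0.14 with an adjusted p of 0.192, and by DESeq2 on all 6 libraries the adjusted p was 0.0649.

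**Figure D2:**
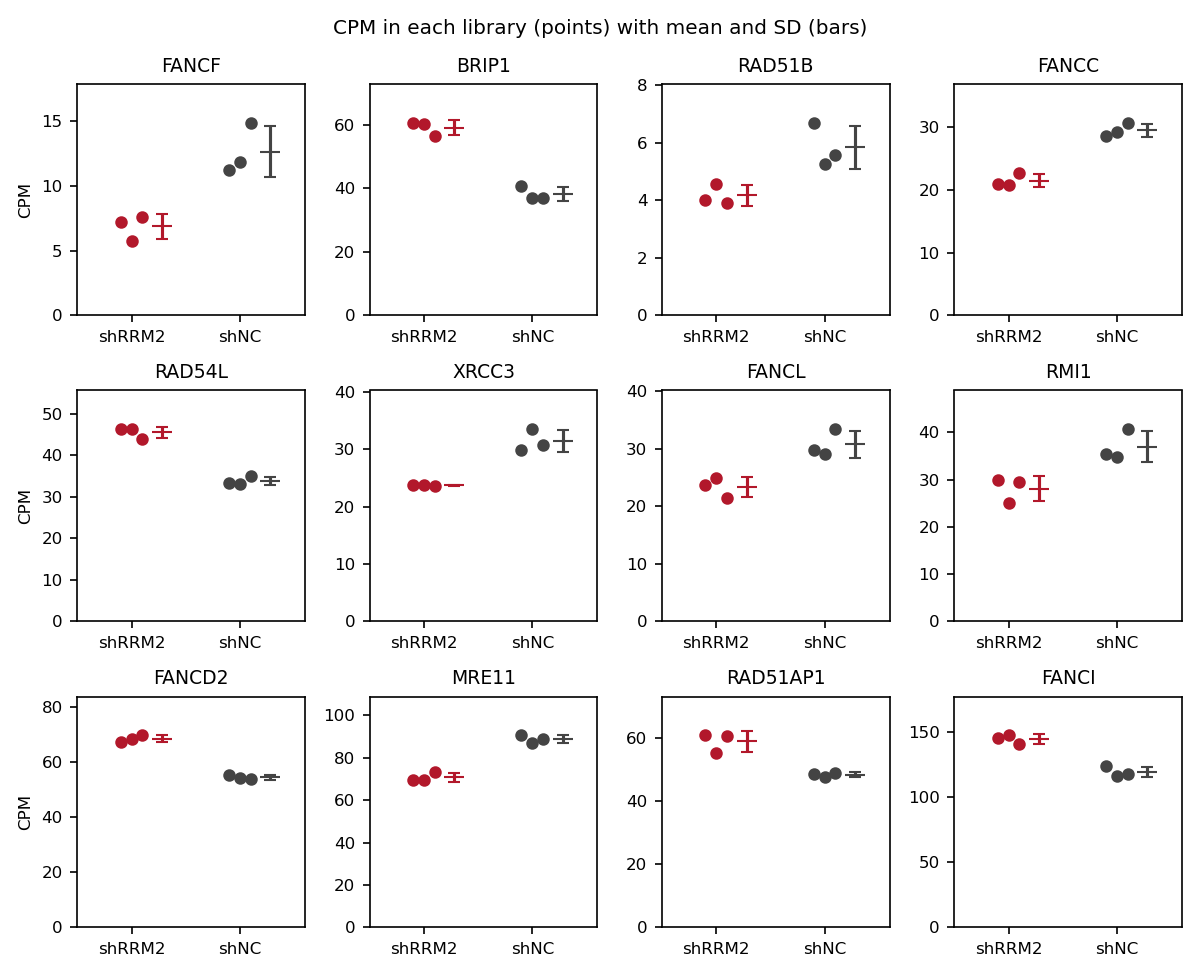
CPM of the 12 called members with the largest changes, by library (points), with the group mean and SD (bars), shRRM2 left of shNC in each panel. The values of shRRM2 lie apart from those of shNC in all 12 panels, at most 7.62 CPM in shRRM2 against at least 11.3 CPM in shNC for FANCF, for example.

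Of the 4 end resection genes, 3 were called lower and 1 higher, beside 26.1% and 26.0% of all tested genes. MRE11, the nuclease of the trimer that detects and trims broken ends, had 69.6, 69.3 and 73.4 CPM in shRRM2 and 90.8, 87.2 and 88.9 CPM in shNC, and fell (log2 fold change -0.33, SE 0.0474, adjusted p = 4.53e-07). NBN, the subunit that brings in ATM, had 69.2, 65.2 and 66.9 CPM in shRRM2 and 78.3, 76.1 and 81.6 CPM in shNC, and also fell (log2 fold change -0.23, SE 0.0497, adjusted p = 0.000236). RBBP8, also called CtIP, which starts resection with MRE11, fell by 0.18 on the log2 scale (adjusted p = 0.00852). For these 3 genes, every shRRM2 library was below every shNC library. RAD50, the ATPase of the trimer, was the exception, with 47.4, 50.2 and 48.9 CPM in shRRM2 and 44.97, 45.2 and 40.5 CPM in shNC and a call of higher (log2 fold change 0.16, SE 0.0610, adjusted p = 0.0253). That call was lost without shNC library 3 (adjusted p = 0.157), without shRRM2 library 2 (adjusted p = 0.0714) and by DESeq2 (adjusted p = 0.0860), and 90.6% of the RAD50 exon bases are shared with an annotated readthrough transcript on the same strand.

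Among the genes that assemble and remodel recombinase filaments, RAD54L showed the largest rise. RAD54L, a DNA translocase that drives strand invasion, had 46.3, 46.4 and 43.9 CPM in shRRM2 and 33.3, 33.2 and 35.0 CPM in shNC (log2 fold change 0.43, SE 0.0637, adjusted p = 7.48e-07). RAD51AP1, which stimulates the same step, had 60.8, 55.1 and 60.5 CPM in shRRM2 and 48.6, 47.4 and 48.8 CPM in shNC (log2 fold change 0.28, SE 0.0570, adjusted p = 8.13e-05). XRCC3, a paralog of the recombinase that pairs with RAD51C, had 23.8, 23.8 and 23.6 CPM in shRRM2 and 29.9, 33.5 and 30.7 CPM in shNC, and fell (log2 fold change -0.41, SE 0.0762, adjusted p = 3.02e-05). The groups lay apart for all 3 genes. Of the exon bases, 18.0% in RAD54L are shared with LRRC41 and 45.4% in XRCC3 with KLC1, each on the opposite strand. Neither partner was called (adjusted p = 0.516 for LRRC41 and 0.567 for KLC1), and whether the counting used strand is not given in the sources used here.

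The other paralogs gave weaker or no calls. RAD51B had 4.02, 4.58 and 3.92 CPM in the shRRM2 libraries, against 6.69, 5.25 and 5.59 CPM in the shNC libraries, with a log2 fold change of -0.48 (95% interval -0.82 to -0.13, adjusted p = 0.0192). The RAD51B groups lay apart, but the call was lost without shNC library 1 (adjusted p = 0.113), without shRRM2 library 1 (0.0552), without shRRM2 library 3 (0.0615) and by DESeq2 (0.0756). RAD51C had 19.6, 22.0 and 23.1 CPM in the shRRM2 libraries, against 15.7, 20.4 and 17.6 CPM in the shNC libraries. These groups overlapped, although the gene was called higher (log2 fold change 0.26, SE 0.0977, adjusted p = 0.0244). Its call was lost without shNC library 1 (log2 fold change 0.17, adjusted p = 0.176), without shNC library 3 (0.0719), without shRRM2 library 3 (0.0961) and by DESeq2 (0.0838). XRCC2 was not called in all 6 libraries (log2 fold change 0.11, 95% interval -0.02 to 0.24) but passed without shRRM2 library 3 (log2 fold change 0.19, adjusted p = 0.0192). RAD51D, also a paralog, had a log2 fold change of 0.09 with an interval of -0.05 to 0.23. RAD54B, a relative of RAD54L that shares 63.3% of its exon bases with FSBP on the same strand, was at 0.14, with an interval of -0.04 to 0.32. FSBP had 0 counts in all 6 libraries. RAD52, an annealing protein, was lower in every shRRM2 library than in every shNC library (15.0, 13.8 and 14.9 CPM in shRRM2 and 17.7, 15.8 and 15.9 CPM in shNC), but its interval of -0.38 to 0.03 crossed 0 and it did not pass (adjusted p = 0.142).

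Of the 8 genes of the Fanconi core complex and its anchor, 3 fell, 5 did not pass and none was called higher by edgeR, beside 26.1% of all tested genes called lower and 26.0% called higher. FANCF (Gene ID 2188, chr11:22622533-22625823), an adaptor that holds the complex together, showed the largest change of all members that passed. FANCF had 7.24, 5.79 and 7.62 CPM in the shRRM2 libraries, against 11.3, 11.9 and 14.9 CPM in the shNC libraries. Every shRRM2 value was below the lowest shNC value, and the mean was 54.4% of that in shNC (log2 fold change -0.88, SE 0.137, 95% interval -1.16 to -0.60, adjusted p = 1.93e-06). FANCC (Gene ID 2176), a partner of FANCF within the complex, had 20.9, 20.8 and 22.7 CPM in shRRM2 and 28.5, 29.1 and 30.6 CPM in shNC (log2 fold change -0.46, SE 0.0789, adjusted p = 1.02e-05). FANCL, the ubiquitin ligase subunit, had 23.6, 25.0 and 21.4 CPM in shRRM2 and 29.8, 29.1 and 33.5 CPM in shNC (log2 fold change -0.39, SE 0.0810, adjusted p = 0.000110). Both fell with no overlap between the groups. FANCL shares 26.6% of its exon bases with VRK2 on the opposite strand, a gene that also fell (log2 fold change -0.25, adjusted p = 0.0159).

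For the 5 core genes without a call, the log2 fold change was 0.02 for FANCA (95% interval -0.07 to 0.10), 0.02 for FANCE (-0.15 to 0.18) and 0.07 for FANCB (-0.11 to 0.24). FANCM, the translocase that anchors the complex to DNA, was at -0.09 (-0.29 to 0.12). FANCG had 39.7, 41.8 and 45.3 CPM in shRRM2 and 38.6, 39.6 and 39.0 CPM in shNC, apart but not past the threshold (log2 fold change 0.11, adjusted p = 0.144). FANCA shares 22.4% of its exon bases with ZNF276 on the opposite strand, which fell (log2 fold change -0.40, adjusted p = 4.99e-06).

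Both subunits of the substrate of the core complex rose. FANCD2 had 67.3, 68.4 and 69.9 CPM in shRRM2 and 55.5, 54.3 and 53.8 CPM in shNC (log2 fold change 0.33, SE 0.0518, adjusted p = 1.93e-06). FANCI had 146, 148 and 141 CPM in shRRM2 and 124, 116 and 118 CPM in shNC (log2 fold change 0.28, SE 0.0397, adjusted p = 3.49e-07). All 6 values of the shRRM2 libraries for the pair were above the shNC values of the same gene. In the dissolution complex, which separates joined sister chromatids, the helicase BLM had 63.9, 63.7 and 66.8 CPM in shRRM2 and 57.1, 49.0 and 57.5 CPM in shNC and rose (log2 fold change 0.25, SE 0.0587, adjusted p = 0.000449). Its cofactor RMI1 had 29.9, 25.1 and 29.4 CPM in shRRM2 and 35.4, 34.7 and 40.7 CPM in shNC and fell (log2 fold change -0.39, SE 0.0782, adjusted p = 7.37e-05). RMI2, the smallest subunit of that complex, was not called (log2 fold change 0.10, 95% interval -0.06 to 0.27).

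Among the checkpoint kinases, the apical kinase ATR was lower and WEE1 was higher. ATR had 87.5, 84.6 and 86.1 CPM in shRRM2 and 101, 99.1 and 96.5 CPM in shNC (log2 fold change -0.20, SE 0.0443, adjusted p = 0.000234). WEE1, which holds CDK1 inactive before mitosis, had 109.7, 112 and 106 CPM in shRRM2 and 99.5, 96.4 and 99.2 CPM in shNC (log2 fold change 0.15, SE 0.0425, adjusted p = 0.00296). Neither gene's groups overlapped. CHEK1, the effector kinase downstream of ATR, had 79.7, 80.3 and 85.0 CPM in shRRM2 and 79.1, 78.2 and 81.9 CPM in shNC and was not called (log2 fold change 0.04, 95% interval -0.06 to 0.13). ATM, the kinase that responds to double-strand breaks, had 58.9, 51.5 and 59.7 CPM in shRRM2 and 54.3, 62.9 and 64.7 CPM in shNC and was not called (log2 fold change -0.10, 95% interval -0.23 to 0.03), but passed without shNC library 1 (-0.18, adjusted p = 0.0252). The groups overlapped for CHEK1 and for ATM. CHEK2, the effector of ATM, had 47.2, 50.1 and 48.3 CPM in shRRM2 and 46.7, 43.9 and 45.9 CPM in shNC, apart but not past the threshold (adjusted p = 0.169). ATRIP, the partner of ATR, had only 1.92, 1.46 and 1.71 CPM in shRRM2 and 1.2, 1.78 and 0.547 CPM in shNC. Its 95% interval ran from -0.23 to 1.18 around a log2 fold change of 0.48, so smaller differences were not detectable at these counts. Of its exon bases, 29.6% are shared with TREX1 on the same strand, which had 0 counts in all 6 libraries. Whether reads in the shared exons were assigned to either gene is not given in the sources used here. The part of this overlap in the low ATRIP counts was not tested.

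The mediators between fork and kinase also split. TIMELESS, of the fork protection complex, had 173, 178 and 175 CPM in shRRM2 and 153, 149.8 and 145 CPM in shNC (log2 fold change 0.23, SE 0.0368, adjusted p = 2.47e-06). CLSPN, or claspin, which carries CHEK1 to ATR, had 107, 107 and 109.8 CPM in shRRM2 and 89.4, 85.6 and 92.7 CPM in shNC (log2 fold change 0.27, SE 0.0442, adjusted p = 3.27e-06). Both rose with no overlap between the groups. TOPBP1, the activator of ATR, had 149.6, 148 and 159 CPM in shRRM2 and 174, 176 and 184 CPM in shNC, and fell (log2 fold change -0.23, SE 0.0382, adjusted p = 4.91e-06). TIPIN, the partner of TIMELESS, had 10.6, 14.04 and 12.5 CPM in shRRM2 and 14.6, 12.4 and 15.9 CPM in shNC, which overlapped and did not pass (log2 fold change -0.20, 95% interval -0.44 to 0.04).

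PARP1, RPA1 and RPA2 were the most abundant members per transcript length. PARP1, a sensor of DNA breaks, was at 101 CPM per kb in shRRM2 and 106 in shNC (CPM divided by the length of the principal transcript). RPA1, the large subunit, was at 64.7 CPM per kb in shRRM2 and 65.9 in shNC, and RPA2, the middle one, at 48.9 CPM per kb in shRRM2 and 42.7 in shNC. At the low end, RAD51B was at 1.61 CPM per kb in shRRM2 and 2.25 in shNC and ATRIP at 0.371 CPM per kb in shRRM2 and 0.257 in shNC. The ATRIP value may leave out reads in the exons shared with TREX1. RPA2 had 89.1, 87.0 and 80.8 CPM in shRRM2 and 74.5, 74.0 and 75.9 CPM in shNC and rose (log2 fold change 0.20, SE 0.0485, adjusted p = 0.000925). RPA3, the small subunit, had 34.6, 34.9 and 34.8 CPM in shRRM2 and 40.5, 38.5 and 40.0 CPM in shNC and fell (log2 fold change -0.19, SE 0.0647, adjusted p = 0.0145). Every shRRM2 library was above the shNC libraries for RPA2 and below them for RPA3. RPA1 was not called (log2 fold change -0.03, 95% interval -0.09 to 0.04). Its sign turned, to 0.01, when library size alone was used for scaling, and neither value was called. PARP1 had 390.1, 404 and 404 CPM in shRRM2 and 435, 412 and 407 CPM in shNC and was not called (log2 fold change -0.07, adjusted p = 0.0860), but passed without shNC library 3 (-0.09, adjusted p = 0.0370).

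The ratio of 2 partner genes was computed within each library for 15 pairs, which does not depend on library scaling. Where the calls of a pair are opposite, a separated ratio restates those calls, so the ratios are given as a description of size. The BRCA2 to PALB2 ratio was 1.45, 1.16 and 1.15 in shRRM2 and 0.886, 0.847 and 0.858 in shNC, a difference of 0.53 on the log2 scale. The BRCA1 to BARD1 ratio was 4.25, 4.21 and 4.49 in shRRM2 and 2.89, 3.48 and 3.34 in shNC, a difference of 0.42. The BLM to RMI1 ratio was 2.14, 2.54 and 2.27 in shRRM2 and 1.61, 1.41 and 1.41 in shNC, a difference of 0.65. In each of these, the lowest shRRM2 ratio was above the highest shNC ratio.

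The MRE11 to RAD50 ratio was 1.47, 1.38 and 1.5 in shRRM2 and 2.02, 1.93 and 2.19 in shNC (log2 difference -0.50). The TIMELESS to TIPIN ratio was 16.3, 12.7 and 13.9 in shRRM2 and 10.5, 12.0 and 9.09 in shNC (log2 difference 0.44). The RAD51C to XRCC3 ratio was 0.826, 0.926 and 0.979 in shRRM2 and 0.525, 0.610 and 0.573 in shNC (log2 difference 0.68). Again the groups lay apart. FANCD2 to FANCI, in contrast, had 0.462, 0.462 and 0.497 in shRRM2 and 0.448, 0.467 and 0.455 in shNC, which overlapped (log2 difference 0.05, exact permutation p = 0.3). Over the 15 pairs, 6 ratios were higher in shRRM2 without overlap, 6 were lower without overlap and 3 overlapped. The share of separated ratios among other gene pairs was not computed, so these counts have no background. Of single tested genes, 29.2% were higher and 28.6% lower in shRRM2 without overlap. With 3 libraries a group the exact two-sided permutation test over libraries cannot go below 0.1, the value of all 12 separated pairs, or 0.125 after Benjamini-Hochberg adjustment over the 15 pairs, so none could pass.

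**Figure D3:**
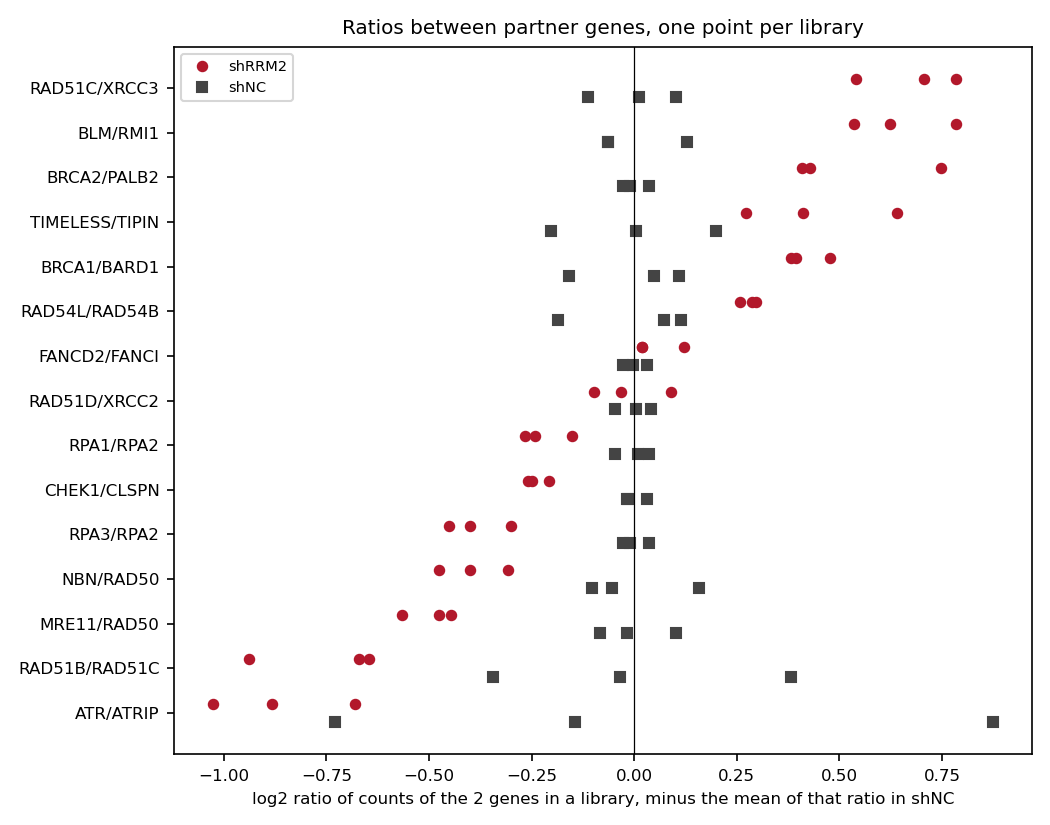
Ratio of partner genes in each library, as the log2 difference from the mean of the shNC libraries (horizontal axis), for 15 pairs, with shRRM2 and shNC points in separate colours. BRCA2/PALB2 lies to the right at 0.53 and MRE11/RAD50 to the left at -0.50, while the points of FANCD2/FANCI overlap.

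Many of these genes are transcribed mainly around S phase, so lists of phase genes were set beside them, chosen from general knowledge. The members were left out of the G1/S list. Its shares and median therefore do not cover members transcribed in that phase, and they depend on that choice. Among all members, 14 were called higher and 14 lower. BLM, BRIP1, CLSPN, RAD51AP1 and RPA2 were among those higher, and TIPIN was not called. With these in it, the list would lean less to lower calls. EXO1, called higher, and USP1, called lower, were kept in the list of other repair genes below. Of 31 G1/S phase genes, 6 (19.4%) rose and 17 (54.8%) fell, beside 26.0% and 26.1% of all tested genes, and the median log2 fold change was -0.17. Named for their size of change were POLA1 (log2 fold change -0.62), the catalytic subunit of the polymerase that works with primase, UHRF1 (-0.59), which maintains DNA methylation, and CDCA7 (-0.49). Of 49 G2/M phase genes, 16 (32.7%) were called higher and 19 (38.8%) lower around a median of -0.01, a balance that turned to 20 higher and 16 lower when library size alone was used for scaling. They included falls of LBR (-0.69), a nuclear envelope receptor, CKS2 (-0.61), a CDK subunit, and PSRC1 (-0.59), a spindle protein. The part of a shift in cell cycle phase in the member values was not tested.

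Other genes of the same pathways, 74 named from general knowledge, of which 73 were tested, gave 21 (28.8%) higher and 22 (30.1%) lower around a median log2 fold change of 0.02, beside 26.0% and 26.1% of all tested genes. With library size alone for scaling, 26 were higher and 20 lower. Of the 10 with the largest changes, 6 rose. HROB, which recruits a helicase to recombination sites, averaged 31.9 ± 1.70 CPM in shRRM2 and 17.4 ± 1.72 CPM in shNC (SD, n = 3 each), with log2 fold change 0.88, SE 0.0849, adjusted p = 1.27e-10. SFR1, an accessory factor of strand exchange, averaged 21.1 ± 1.37 CPM in shRRM2 and 11.6 ± 1.496 CPM in shNC, and its partner SWI5 averaged 42.4 ± 6.99 CPM in shRRM2 and 30.5 ± 0.441 CPM in shNC (log2 fold change 0.87 and 0.48). FAAP24, the DNA-binding partner of FANCM, averaged 17.7 ± 1.35 CPM in shRRM2 and 10.2 ± 1.53 CPM in shNC (log2 fold change 0.78, adjusted p = 6.32e-07), while FANCM itself was not called. The spread of SWI5 among the shRRM2 libraries was the widest of the 10. SHLD1, of the complex that limits resection, averaged 3.72 ± 0.556 CPM in shRRM2 and 2.19 ± 0.171 CPM in shNC (log2 fold change 0.76, adjusted p = 0.00395). CDC25C, a phosphatase that opposes WEE1, averaged 22.3 ± 1.17 CPM in shRRM2 and 16.0 ± 0.371 CPM in shNC (log2 fold change 0.47).

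The largest falls of that list were in 4 genes. ERCC4, also called XPF, a nuclease that unhooks crosslinks, averaged 19.7 ± 1.94 CPM in shRRM2 and 29.4 ± 1.00 CPM in shNC (log2 fold change -0.58, adjusted p = 4.74e-07). WRN, a helicase of the same family as BLM, averaged 30.5 ± 2.66 CPM in shRRM2 and 44.1 ± 2.36 CPM in shNC (log2 fold change -0.53), opposite to the call of BLM. SPIDR, a scaffold reported to bind BLM, averaged 39.2 ± 1.88 CPM in shRRM2 and 58.5 ± 0.619 CPM in shNC (log2 fold change -0.58). ZRANB3, a fork remodelling translocase, averaged 4.68 ± 0.728 CPM in shRRM2 and 7.15 ± 0.921 CPM in shNC (log2 fold change -0.60). The 10 named genes were picked among those past the threshold, and 30 of the 73 tested genes of that list did not pass.

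**Figure D4:**
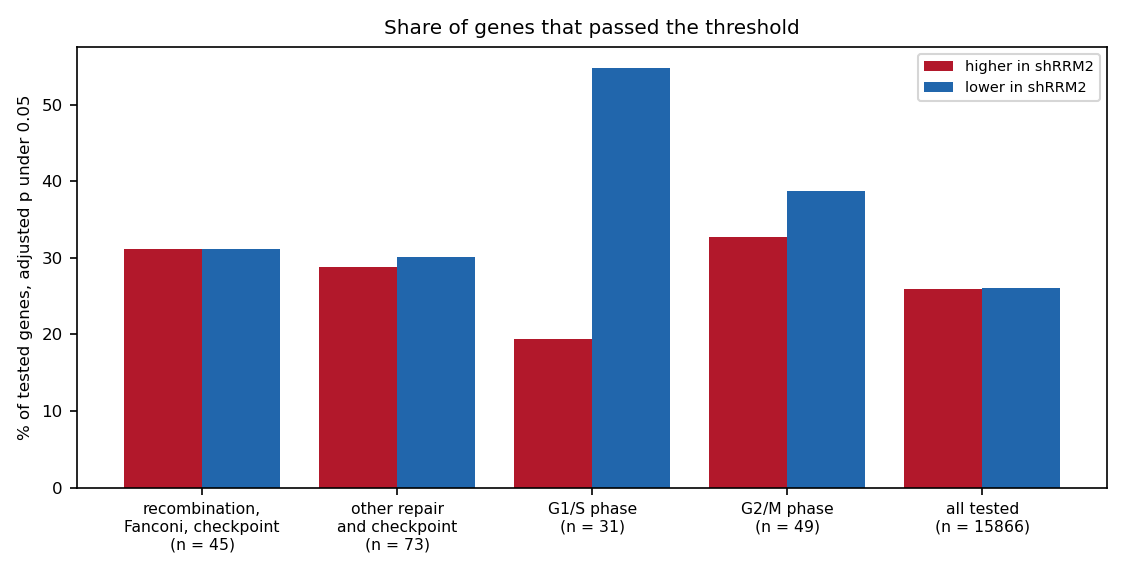
Percent of tested genes called higher and lower in shRRM2 against shNC, for the 45 members, the other repair and checkpoint genes, the G1/S and G2/M phase genes and all tested genes. The G1/S list leaves out the members. The members have 31.1% in each direction, beside 26.0% higher and 26.1% lower over all tested genes.

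Several members start head to head with another gene, so that a short stretch of DNA lies between 2 outward transcripts. The search covered the 38 of 45 members with a matched start in the RefSeq annotation (GRCh38.p14). Within 1000 bases, 19 of these members had such a neighbour, in 20 pairs. In 13 pairs over 12 members the neighbour was also tested. In 2 pairs, each with BRCA1 as the member, both genes were higher. In 2 pairs both were lower and in 1 they were called in opposite directions. The stretches between the starts of 4 pairs are printed from RefSeq in the direction of the member, as examples. Capitals mark CCAAT, the box bound by the factor NF-Y, or its reverse complement ATTGG. The stretch of BRCA1/NBR1, both called higher, is not printed and holds 0 such boxes. Among pairs with neither gene called, CHEK2/HSCB holds 3 boxes, and RPA1/SMYD4 and TIPIN/MAP2K1 hold 1 each. A link between the box and the calls was not tested.
BRCA1/NBR2 (chr17:43125365-43125556, minus strand): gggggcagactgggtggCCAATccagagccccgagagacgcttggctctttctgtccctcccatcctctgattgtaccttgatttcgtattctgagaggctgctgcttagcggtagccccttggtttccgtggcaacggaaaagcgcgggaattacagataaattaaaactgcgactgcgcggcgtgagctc
MRE11/ANKRD49 (chr11:94493845-94493983, minus strand): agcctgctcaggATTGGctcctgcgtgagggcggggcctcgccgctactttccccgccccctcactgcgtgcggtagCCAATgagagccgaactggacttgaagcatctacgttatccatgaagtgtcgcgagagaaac
RMI1/HNRNPK (chr9:83980216-83980358, plus strand): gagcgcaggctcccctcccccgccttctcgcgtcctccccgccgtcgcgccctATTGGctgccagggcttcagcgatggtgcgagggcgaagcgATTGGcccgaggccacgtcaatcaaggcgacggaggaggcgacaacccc
PALB2/DCTN5 (chr16:23641311-23641465, minus strand): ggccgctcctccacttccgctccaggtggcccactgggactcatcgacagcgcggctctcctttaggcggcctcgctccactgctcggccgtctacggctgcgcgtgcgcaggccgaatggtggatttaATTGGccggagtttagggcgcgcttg

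Beside BRCA1, NBR2, a non-coding gene, had 12.2, 16.8 and 11.2 CPM in shRRM2 and 10.2, 9.98 and 7.47 CPM in shNC and rose (log2 fold change 0.54, SE 0.144, adjusted p = 0.00280). NBR1, an autophagy receptor that starts next to an alternative upstream start of BRCA1, had 227, 232 and 229 CPM in shRRM2 and 163, 148 and 164 CPM in shNC and rose (log2 fold change 0.53, SE 0.0381, adjusted p = 9.74e-14). The difference between its change and that of BRCA1 was not tested. The shRRM2 values of both neighbours were above all shNC values. HNRNPK, an abundant RNA-binding protein opposite RMI1, had 619.5, 622 and 588 CPM in shRRM2 and 874, 824 and 821 CPM in shNC and fell, as RMI1 did (log2 fold change -0.46, SE 0.0306, adjusted p = 1.57e-14). ANKRD49, opposite MRE11, had 15.5, 12.6 and 12.4 CPM in shRRM2 and 17.0, 16.0 and 16.6 CPM in shNC and was called lower (log2 fold change -0.29, SE 0.106, adjusted p = 0.0203), but that call was lost without shNC library 1 (adjusted p = 0.0594), without shRRM2 library 2 (0.0852), without shRRM2 library 3 (0.102) and by DESeq2 (0.0706).

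In further pairs, 1 gene was called and the other was not, or was called in the other direction. The calls were opposite in 1 pair. Only the member was called in 1 pair with a higher member and 2 pairs with a lower member. In 1 pair only the neighbour was called, as lower. ZFYVE21, opposite XRCC3, had 25.4, 27.3 and 25.9 CPM in shRRM2 and 19.7, 20.1 and 20.5 CPM in shNC and rose (log2 fold change 0.38, SE 0.0812, adjusted p = 0.000161), while XRCC3 fell. DCTN5, a dynactin subunit opposite PALB2, was not called (log2 fold change 0.05, adjusted p = 0.317), while PALB2 fell. MOSPD2, opposite FANCB, fell (log2 fold change -0.45, adjusted p = 0.000250), while FANCB was not called. FERRY3, opposite RAD51AP1, had the same sign as its neighbour without a call (log2 fold change 0.16, adjusted p = 0.0999), and was called higher with library size alone for scaling (adjusted p = 0.0410). TF, opposite TOPBP1, was not called while TOPBP1 fell, and in the other 4 tested pairs neither gene was called.

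**Figure D5:**
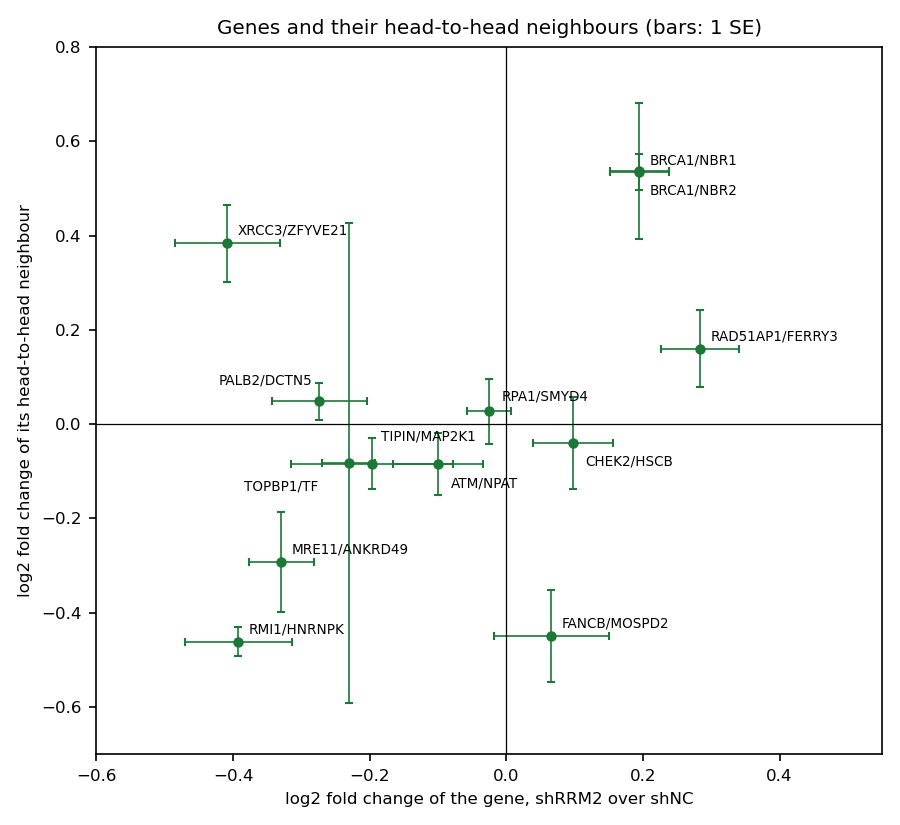
Log2 fold change of each member (horizontal axis) and of its head-to-head neighbour (vertical axis), shRRM2 over shNC, with bars of 1 SE. RMI1/HNRNPK and MRE11/ANKRD49 lie at the lower left, the BRCA1 pairs at the upper right and XRCC3/ZFYVE21 at the upper left.

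Promoter windows from 250 bases before to 50 after each RefSeq start were searched for 4 motifs, on both strands. RefSeq windows matched 38 of the 45 members, and FANCI, NBN, RAD54B, RMI2, RPA2, RPA3 and WEE1 were not matched. The E2F motif, TTTNNCGC with each N being C or G, is bound by factors that switch genes on at the start of S phase. It stood in 8 of 38 members, namely 2 of the 11 called higher, 3 of the 12 called lower and 3 of the 15 not called, and in 15.4% of 52 member windows, beside 3.31% of all 35116 windows and 4.83% of 16698 windows of tested genes. The match in capitals is printed from RefSeq with 10 bases on each side, for genes called in opposite directions.
CLSPN, higher (chr1:35769966-35769993, minus strand): ctctggctggGCGGGAAAgcaagaacag
FANCD2, higher (chr3:10026425-10026452, plus strand): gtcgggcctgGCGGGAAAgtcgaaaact
TOPBP1, lower (chr3:133661931-133661958, minus strand): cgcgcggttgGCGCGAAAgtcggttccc
RMI1, lower (chr9:83980763-83980790, plus strand): gcgcgagcgcGCGGCAAAtcgggcggga
FANCC, lower (chr9:95317738-95317765, minus strand): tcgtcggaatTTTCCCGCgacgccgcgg

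CLSPN and FANCD2, which rose, and FANCC, which fell, carry the same 8 letters on one strand or the other, and so does XRCC2, which was not called. The match was thus found in genes of every call. The remaining carriers were FANCA and TIPIN, and FANCC holds a further match in the same window. The CCAAT box stood in 20 of 38 members, namely 7 of the 11 called higher, 5 of the 12 called lower and 8 of the 15 not called, and in 48.1% of member windows, beside 34.6% of all windows and 34.3% of those of tested genes. The letters TTTGAA, known as the CHR element of late cell cycle genes, stood in 3 members, ATM, BRIP1 and FANCC, and in 5.77% of member windows, beside 15.2% of all windows and 10.6% of those of tested genes.

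The cAMP response element, TGACGTCA, stood in RAD51C and XRCC2 only among the 38 members, both of them paralogs of the recombinase, and in 5.77% of member windows, beside 1.85% of all windows and 2.77% of those of tested genes. The member share is 3 of 52 windows, which hold only 2 different stretches. Both stretches are shown, with the element in capitals, because they are the only matches among the members' genes.
RAD51C (chr17:58692562-58692589, plus strand): gctttacgtcTGACGTCAcgccgcacgc
XRCC2 (chr7:152676259-152676286, minus strand): cgcggaagtcTGACGTCAcaggaactgg

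Both short and long genes were called. The median span on the genome was 61.5 kb for the 14 members called higher, 82.1 kb for the 14 called lower and 54.1 kb for the 17 not called, and the members that fell included the longest, RAD51B with 863 kb, and FANCF with 3.29 kb. Across the 45 genes, which share their libraries and are not independent replicates, Spearman's rho between span and log2 fold change was -0.13, and between mean level and log2 fold change 0.25, given as descriptions. Over the 15199 tested genes with a known span, the same values were -0.01 and -0.13. The values for level differ in sign but cover unlike ranges of level. No value was computed over tested genes at the levels of the members. At a mean of at least 10 CPM, 42 members remained, with 14 (33.3%) higher and 12 (28.6%) lower, beside 28.3% higher and 34.3% lower of the 10225 tested genes at that level. Their median size of 0.20 lay beside 0.21 for those genes. The 3 members under that level were RAD51B, FANCF and ATRIP, which include both the largest fall and the widest interval.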

How the data were processed

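Poly-A RNA from 6 PANC-1 libraries was prepared with a directional kit after Trizol extraction, per the labels' protocols. The authors deposited whole-number read counts per Gene ID. The submitters' processing notes name fastp 0.23.4, featureCounts and build hg38. Not given in the sources used here are the aligner, annotation release, strand setting and treatment of multi-mapping reads, so exon overlaps, pseudogene copies (of BRCA1, CHEK2 and FANCD2, for example) and near-identical genes could shift counts. Columns carry "si" where the labels carry "sh", and were matched by name and number, with 0 columns left over. RefSeq matched 40120 of 42902 Gene IDs, with 1.25% of counts in unmatched IDs.

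Counts were filtered with edgeR's filterByExpr, scaled by TMM and tested with edgeR 4.0.16's robust quasi-likelihood test, group only, in R 4.3.3. Benjamini-Hochberg adjustment ran over all tested genes at a threshold of 0.05. The code was tested on simulated data. SE was taken as |log2 fold change| over the root of the F statistic, and intervals are 95%. Partner ratios used counts with 0.5 added. Levels per length used the principal GENCODE v29 transcript, and overlaps its exons on both strands. Alternatives were DESeq2 1.42.0, limma 3.58.1 (voom), other scaling, no filter, a replicate block and leaving out each library. Genes named from the other lists were the 10 largest changes past the threshold for repair genes and the 3 largest for each phase list. The members and lists were chosen with earlier results of these data known.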

Additional observations from a re-analysis of the deposited data

How the results depend on the processing

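Of the 45 genes, 36 kept their direction and their side of the threshold under all 12 alternatives, among them 24 of the 28 called genes, 12 higher and 12 lower. BARD1, RAD50, RAD51B and RAD51C lost their calls under DESeq2 and under some of the fits without 1 library, and ATM, PARP1 and XRCC2 gained one without 1 library each, with values given above. The number of members called lower by at least 0.5 ranged from 1 to 2 over the fits without 1 library. DESeq2 called 7065 genes, where edgeR called 8261. With the replicate block, 8244 genes were called, with 14 members higher and 14 lower. Libraries of the same number did not deviate together (correlations -0.0068, -0.0034 and -0.021). No shared effect of the number was thus seen, but whether the libraries were prepared in pairs cannot be told from this. Signs reversed for genes that were not called: RPA1 was at 0.012 with library size alone, and over the fits without 1 library FANCE ranged from -0.045 to 0.071, TF, a neighbour of TOPBP1 with 62 counts in all, from -0.43 to 0.28, SMYD4, beside RPA1, from -0.012 to 0.055 and HSCB, beside CHEK2, from -0.11 to 0.011 on the log2 scale. The cause of these changes was not tested. Low counts limit ATRIP, RAD51B and FANCF most, and for ATRIP the part of the exons shared with TREX1 was not tested.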
